A study of Mus musculus with 6 samples.

Results

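The genes described are the fatty acid transport protein family (Slc27a1 to Slc27a6) and the long-chain acyl-CoA synthetases Acsl1, Acsl3, Acsl4 and Acsl5 of the mouse, 10 genes in all against 19937 genes measured by a probe set that names 1 gene. They were chosen by family, by looking up each symbol in the platform annotation and taking the probe set with the highest mean. Of the 10, 8 had a value, each from 1 probe set: all 6 Slc27 genes, Acsl4 and Acsl5. The probe set that names Acsl3 also names a second gene and was not assigned to it. No probe set in the annotation names Acsl1. The choice was made with the difference of Slc27a2 between the treatments known, so the values of these genes, and any count of them past a threshold, are given as a description and support nothing.

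The study profiled total RNA of mouse embryonic stem cells, cultured in serum and the cytokine LIF, on 6 one-colour Affymetrix arrays. CHIR99021, which blocks the kinase GSK3 and so stabilises β-catenin, had been added at 3 µM for 24 h in 3 of them, and XAV939, which blocks tankyrases and so lowers β-catenin, for 24 h in the other 3. The XAV939 dose is 3 µM in the sample labels and 1 µM in the treatment protocol. Every array came from the same V6.5 line, in which Ctnnb1, the β-catenin gene, carries a biotin-acceptor and 3xFLAG knock-in (Ctnnb1-BioFLneo;BirA), and the cells were kept with feeder cells from DR4 mice. No untreated arrays were analysed here, so a difference cannot be assigned to either compound. Separate cultures are not stated for the replicates, and errors cover only the spread between these arrays.

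Long-chain fatty acids enter metabolism only after they are joined to coenzyme A, a step that uses ATP and traps them in the cell. Acyl-CoA synthetases of the Acsl family do this at the membranes of the endoplasmic reticulum, mitochondria and peroxisomes. Slc27 proteins share the AMP-binding fold of these enzymes, and several of them both promote fatty acid uptake and activate very long-chain fatty acids. The resulting acyl-CoAs are oxidised in mitochondria and peroxisomes, elongated and desaturated, or built into phospholipids and triglycerides.

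Slc27a2 differed most among these genes, and its proximal upstream sequence is shown beside that of Slc27a4, a family member on the same chromosome whose arrays differed slightly in the other direction. Both are the 250 bases before the annotated start, from RefSeq on GRCm38.p6, on the plus strand, 5′ to 3′. Capitals mark GGGCGG (the GC box) and AGGTCA (the half-site of many nuclear receptors) on either strand.
Slc27a2, chr2:126552774-126553023: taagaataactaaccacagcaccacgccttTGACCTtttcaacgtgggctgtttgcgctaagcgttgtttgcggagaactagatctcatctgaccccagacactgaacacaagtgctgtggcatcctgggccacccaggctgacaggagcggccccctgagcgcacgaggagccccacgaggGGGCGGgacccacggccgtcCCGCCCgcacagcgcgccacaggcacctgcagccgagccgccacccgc
Slc27a4, chr2:29802384-29802633: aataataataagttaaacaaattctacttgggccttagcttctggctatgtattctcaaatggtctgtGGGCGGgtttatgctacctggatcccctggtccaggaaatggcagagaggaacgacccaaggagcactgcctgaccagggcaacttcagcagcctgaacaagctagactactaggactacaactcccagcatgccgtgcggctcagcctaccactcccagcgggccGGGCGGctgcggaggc

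RefSeq promoter windows, 250 bases before to 50 after a start, were present for 8 of the 10 genes, with 11 windows in all. These include windows of Acsl1 and Acsl3, which have no expression value. The Slc27a2 window held 25 CpG dinucleotides and 65.3% G and C, and the Slc27a4 window held 14 and 58.7%. The median CpG count over all 32851 windows was 7. GC boxes were in 8 of the 11 windows, against 35.7% of all windows, and CCAAT in 6 of the 11, against 37.4%. TATAAA was in 0 of the 11, against 13.6%. The β-catenin partners of the TCF/LEF family were searched as CTTTG followed by A or T at each of the next 2 bases, on both strands. These 4 words were in 1 Slc27a1 window and in the Slc27a3 window, or 2 of 11, against 16.9% of all windows. They were in no window of Slc27a2, Slc27a4, Acsl1, Acsl3, Acsl4 or Acsl5, so their lack was not particular to the genes that were lower. AGGTCA was found in the Slc27a2 window only, at position -220 from its start on the opposite strand, against 16.3% of all windows. A match, or its lack, describes these letters in this window and says nothing of binding.

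Values of the 8 measured genes are log2 expression from RMA, and every difference is CHIR99021 minus XAV939 with the standard error (SE) of limma's fit over all genes. Of the 8 genes, 3 were lower with CHIR99021 at an adjusted p of 0.05, 0 were higher and 5 did not pass. Over all genes 9.65% passed, made up of 4.34% that were lower and 5.31% that were higher. Treatments did not overlap for 5 of the 8 genes, against 25.1% of all genes. These counts are read as a description, because the family was taken up for one of its members. The 8 genes had a median difference of -0.03, against 0.01 for all genes, and a median absolute difference of 0.24, against 0.06.

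**Figure D1:**
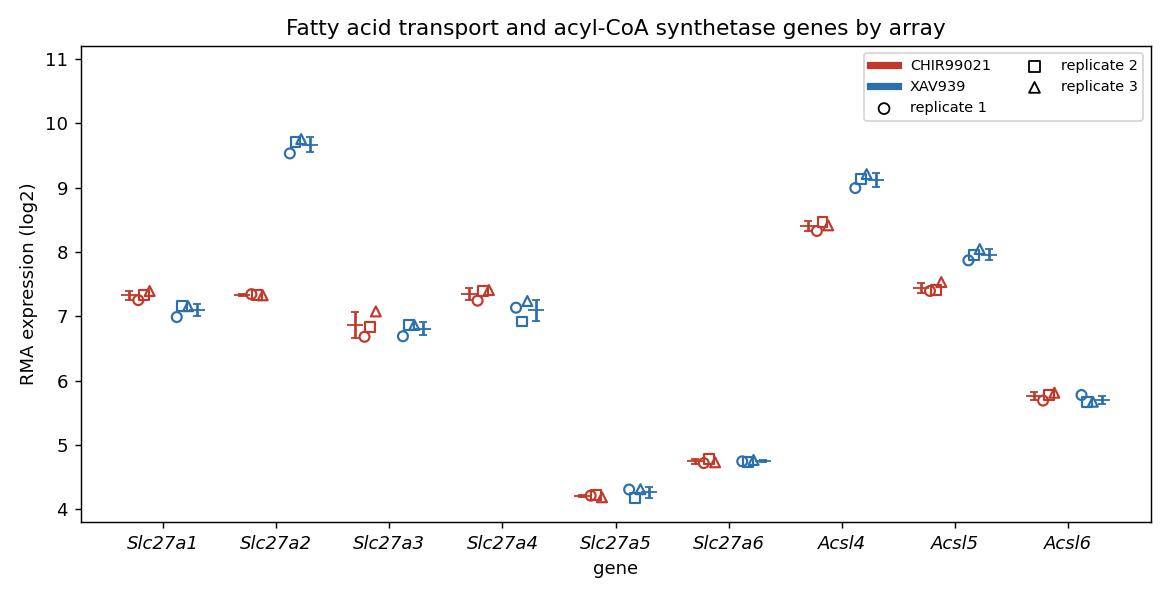
RMA expression (log2) of the 8 measured genes and of Acsl6 on each array, with CHIR99021 in red to the left of XAV939 in blue, symbols for replicates, and the mean with its SD (n = 3) beside them. The means differ by -2.33 for Slc27a2, -0.71 for Acsl4 and -0.51 for Acsl5, and by between -0.06 and 0.25 for the others.

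Slc27a2 (probe set 10475653) encodes FATP2, a very long-chain acyl-CoA synthetase known from liver and kidney, where it acts at peroxisomes, the endoplasmic reticulum and the cell surface. Its log2 level was 7.34, 7.32 and 7.33 on the CHIR99021 arrays, against 9.53, 9.70 and 9.75 on the XAV939 arrays. All CHIR99021 arrays lay far below all XAV939 arrays, and they lay closer to each other. The means were 7.33 ± 0.01 with CHIR99021 and 9.66 ± 0.12 with XAV939 (SD, n = 3 each). The difference was -2.33 ± 0.06 (SE), a level 5.03-fold lower with CHIR99021. It was the gene with the second most negative difference of the 19937. With 1 array left out the difference ranged from -2.40 without XAV939 replicate 1 to -2.29 without XAV939 replicate 3.

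Acsl4 (probe set 10607089) encodes the synthetase that prefers arachidonic and other polyunsaturated fatty acids and feeds them into phospholipids, and it is known for sensitising cells to ferroptosis, a death by lipid peroxidation. It read 8.32, 8.47 and 8.41 with CHIR99021, against 8.99, 9.14 and 9.21 with XAV939. The treatments did not overlap, and the gap between them was wider than the range within either. The difference was -0.71 ± 0.07 (SE), or 1.64-fold lower with CHIR99021. A difference of at least this size, in either direction, was seen for 1.18% of all genes.

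Acsl5 (probe set 10464045) encodes a synthetase of the mitochondrial outer membrane and endoplasmic reticulum, best known from intestine and liver. Its arrays gave 7.39, 7.41 and 7.53 with CHIR99021, against 7.87, 7.96 and 8.04 with XAV939. Again no CHIR99021 array reached the lowest XAV939 array. The difference was -0.51 ± 0.06 (SE), or 1.43-fold lower with CHIR99021, a size reached by 2.5% of all genes. Acsl6, a synthetase of brain that belongs to the family but not to the 10 genes, had 5.69, 5.78 and 5.81 with CHIR99021, against 5.78, 5.67 and 5.67 with XAV939. Its treatments overlapped and its difference was 0.05 ± 0.06 (SE), with a range of 0.03 (without CHIR99021 replicate 3) to 0.09 (without CHIR99021 replicate 1 or XAV939 replicate 1) when 1 array was left out.

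Slc27a1 (probe set 10572647) encodes FATP1, the insulin-responsive transporter of muscle and fat. Its level was 7.25, 7.33 and 7.39 with CHIR99021, against 6.99, 7.15 and 7.16 with XAV939. Every CHIR99021 array was above every XAV939 array, by a small margin. The difference was 0.22 ± 0.06 (SE, 1.17-fold), and the gene did not pass the threshold among all genes.

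Slc27a4 (probe set 10470751) encodes FATP4, the main fatty acid transport protein of intestine and skin and an acyl-CoA synthetase of the endoplasmic reticulum. It read 7.24, 7.40 and 7.41 with CHIR99021, against 7.13, 6.92 and 7.24 with XAV939. The lowest CHIR99021 array and the highest XAV939 array differed only beyond the second decimal. The difference of 0.25 ± 0.08 (SE, 1.19-fold) did not pass, and it was 0.16 without XAV939 replicate 2, the lowest array, and 0.32 without XAV939 replicate 3.

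Slc27a3 (probe set 10499766) encodes FATP3, which acts as an acyl-CoA synthetase. Its level was 6.68, 6.83 and 7.07 with CHIR99021, against 6.69, 6.86 and 6.86 with XAV939. The treatments overlapped, and the CHIR99021 arrays spread more widely (SD 0.20) than those of any other measured gene of the 8. The difference was 0.06 ± 0.09 (SE), and its sign turned without CHIR99021 replicate 3 (-0.05) and without XAV939 replicate 1 (-0.0014).

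Slc27a5, the bile acid-CoA ligase and fatty acid transporter of liver, and Slc27a6, a transporter known from heart, had values below the median of all probe sets, which was 5.68. Slc27a5 (probe set 10560045) read 4.21, 4.22 and 4.19 with CHIR99021, against 4.31, 4.17 and 4.31 with XAV939. Slc27a6 (probe set 10455901) read 4.72, 4.78 and 4.73 with CHIR99021, against 4.75, 4.74 and 4.77 with XAV939. Their treatments overlapped, with differences of -0.06 ± 0.06 and -0.01 ± 0.05 (SE). That of Slc27a5 was -0.10 without XAV939 replicate 2 and -0.03 without XAV939 replicate 3. No detection call was made on these arrays, and RMA narrows the differences of weakly expressed genes, so these values do not show whether either gene was expressed.

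The array profile of Slc27a2 was compared with those of all other genes by the root mean square distance between log2 values centred on each gene's mean over the 6 arrays. The nearest profiles were those of Pim2, a serine/threonine kinase (distance 0.14), and Otx2, a transcription factor of the primed epiblast (0.15). Enpp3, a cell-surface nucleotide pyrophosphatase (0.23), Car4, a carbonic anhydrase (0.34), and Lrp2, an endocytic receptor (0.37), came next. Their differences were -2.18 for Pim2, -2.14 for Otx2, -2.79 for Enpp3, -1.67 for Car4 and -1.60 for Lrp2. Over 6 arrays in 2 groups, nearness on this measure reflects mainly the size of the treatment difference.

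**Figure D2:**
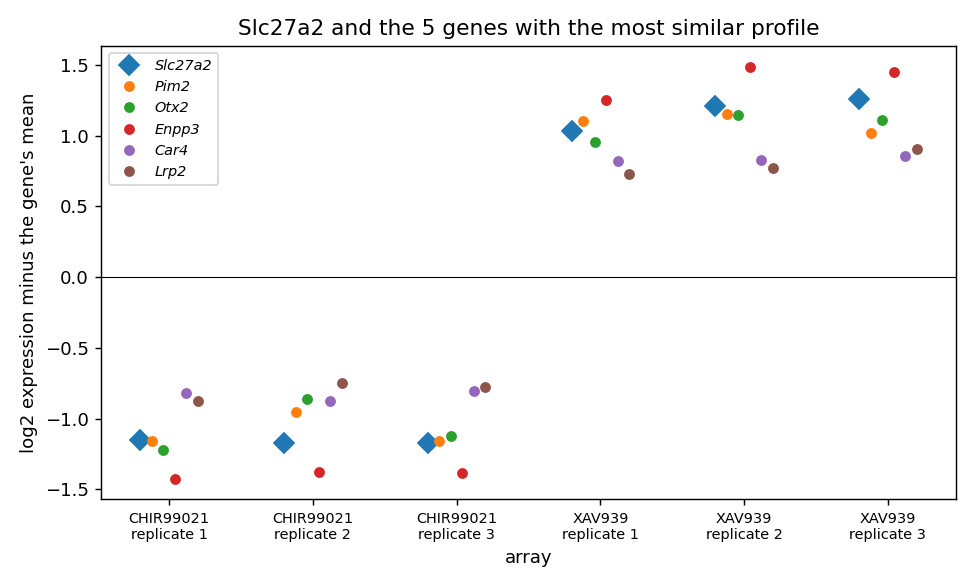
Log2 expression minus each gene's own mean (vertical) for Slc27a2 (diamonds) and the 5 genes nearest to it (circles) on the 3 CHIR99021 and 3 XAV939 arrays (horizontal). All 6 genes are below their mean with CHIR99021 and above it with XAV939, and Enpp3 has the widest separation, with a difference of -2.79.

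The genes next to Slc27a2 on its chromosome did not pass. In RefSeq order on GRCm38.p6 the nearest measured genes are Fgf7, Dtwd1 and Atp8b4 on one side and Hdc, Gabpb1 and Usp8 on the other. Hdc, the histidine decarboxylase gene that lies closest after it, read 5.61, 5.50 and 5.60 with CHIR99021, against 5.69, 5.75 and 5.66 with XAV939. Its difference was -0.13 ± 0.06 (SE, limma adjusted p = 0.210). Atp8b4, a phospholipid-transporting ATPase gene, is next to it on the other side. It read 4.37, 4.27 and 4.39 with CHIR99021, against 4.36, 4.32 and 4.47 with XAV939, a difference of -0.04 ± 0.06 (SE, limma adjusted p = 0.796). Those of the other 4 neighbours lay between -0.11 (Fgf7) and -0.04 (Usp8). With 1 array left out, Fgf7 ranged from -0.16 (without XAV939 replicate 2) to -0.04 (without XAV939 replicate 3) and Gabpb1 from -0.16 (without XAV939 replicate 1) to -0.03 (without XAV939 replicate 2). The signs of Atp8b4 and Usp8 turned without XAV939 replicate 3, to 0.0020 and 0.06.

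**Figure D3:**
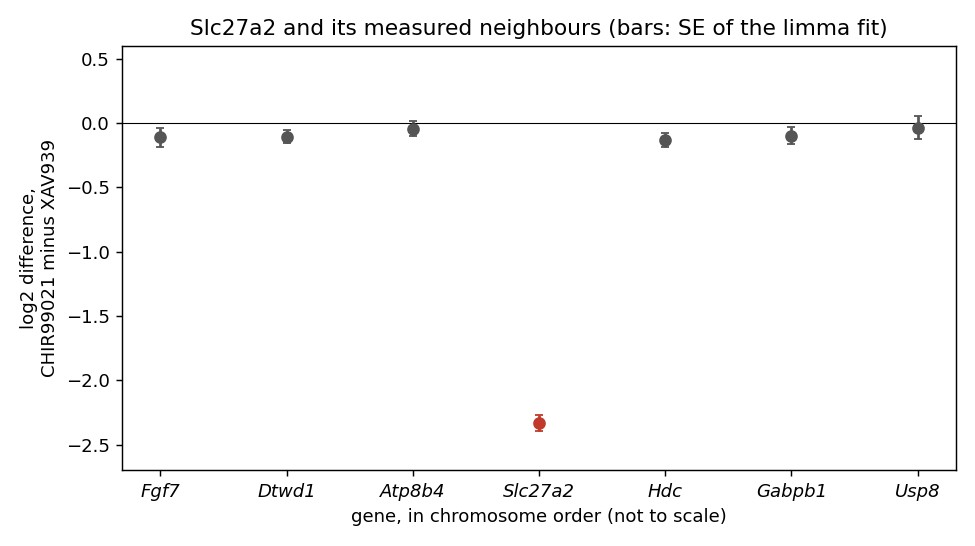
Log2 difference, CHIR99021 minus XAV939, with the SE of limma's fit (vertical), for Slc27a2 in red and its 3 nearest measured genes on each side in chromosome order (horizontal, not to scale). Slc27a2 is at -2.33, and all 6 neighbours are between -0.13 and -0.04.

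Beyond the 10 genes, the pathway was followed in 9 lists with 168 measured genes of 173 listed. Of these, 16 rose, 7 fell and 145 did not pass, so that 13.7% passed, against 9.65% of all genes. Here and below, rose and fell mean past the threshold and higher or lower with CHIR99021 than with XAV939. They do not mean a change from untreated cells. Their median difference was 0.03, against 0.01 for all genes. The counts of genes that fell depended on single arrays: 4 in place of 7 fell when CHIR99021 replicate 1, CHIR99021 replicate 2, XAV939 replicate 2 or XAV939 replicate 3 was left out. P-values in the following paragraphs are from limma, adjusted over all genes.

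Among 14 other acyl-CoA synthetases, 1 rose, 0 fell and 13 did not pass, or 7.14% past the threshold against 9.65% of all genes, with a median difference of 0.03. Aacs, which activates acetoacetate for lipid synthesis in the cytosol, averaged 8.22 ± 0.03 with CHIR99021 and 7.94 ± 0.06 with XAV939 (SD, n = 3 each), and rose by 0.28 ± 0.05 (SE, adjusted p = 0.00707). Among 20 uptake and binding proteins, 1 rose and 19 did not pass (5.0% past the threshold), with a median of 0.03. The gene that rose was Acbd3, an acyl-CoA-binding-domain protein of the Golgi (0.24 ± 0.05, SE, adjusted p = 0.0155), and its call was lost without CHIR99021 replicate 1 (adjusted p = 0.0743) or 2 (0.0674). In this list 2 genes passed without CHIR99021 replicate 1 (Fabp3 and Cav1) and 2 without XAV939 replicate 1 (Fabp3 and Acbd3), and 0 passed without CHIR99021 replicate 2.

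The thioesterases, which split acyl-CoAs back into free fatty acids, had 0 of 16 genes higher, 2 lower and 14 not past, with a median of 0.03. Past the threshold were 12.5%, against 9.65% of all genes. Without XAV939 replicate 3, Acot10 was higher and passed. Acot1, of the cytosol, read 5.76, 5.55 and 5.54 with CHIR99021, against 5.93, 6.07 and 6.03 with XAV939, and fell by 0.39 (adjusted p = 0.00536). Acot2, its mitochondrial paralogue, fell by 0.38 (adjusted p = 0.0476). It lost its call without any one array other than XAV939 replicate 1 (adjusted p = 0.0551 to 0.163). The sequences of Acot1 and Acot2 are close, and their probe sets may share signal.

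The carnitine shuttle and mitochondrial β-oxidation moved both ways, with 4 of 24 genes higher, 2 lower and 18 not past, and a median of 0.02. In this list 25.0% passed, against 9.65% of all genes. Cpt1a, the carnitine palmitoyltransferase that commits acyl-CoAs to mitochondria, read 7.55, 7.66 and 7.58 with CHIR99021, against 7.18, 7.15 and 7.18 with XAV939. It rose by 0.43 ± 0.05 (SE, adjusted p = 4.20e-04). Slc25a20, the carnitine-acylcarnitine carrier that follows it, read 9.38, 9.39 and 9.34 with CHIR99021, against 8.72, 8.90 and 8.97 with XAV939. It rose by 0.51 ± 0.07 (SE, adjusted p = 7.26e-04), with no overlap between treatments. Acads, the short-chain acyl-CoA dehydrogenase, rose by 0.41 ± 0.06 (SE, adjusted p = 0.00126). Acadl, the long-chain dehydrogenase, went the other way, with 7.21, 7.33 and 7.22 with CHIR99021, against 7.78, 7.86 and 7.86 with XAV939, and fell by 0.58 (adjusted p = 9.25e-05). Acad11 (0.21 ± 0.05) rose and Slc22a5, the plasma membrane carnitine transporter, fell by 0.22. The call of Acad11 was lost without any one array other than XAV939 replicate 3 (adjusted p = 0.0573 to 0.115), and that of Slc22a5 without any one other than XAV939 replicate 1 (0.0606 to 0.183).

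Peroxisomal oxidation genes, on a route for very long-chain fatty acids, had 0 of 16 genes past the threshold in limma at an adjusted p of 0.05, and 6 at an unadjusted p of 0.05, against 20.6% of all genes at that unadjusted p, with a median difference of 0.08. The smallest p was that of Crot, the peroxisomal carnitine octanoyltransferase, at 8.37, 8.34 and 8.30 with CHIR99021, against 7.95, 8.13 and 8.24 with XAV939 (0.23 ± 0.07, SE, unadjusted p = 0.0106, adjusted p = 0.0864). Crot passed without XAV939 replicate 3 (0.29, adjusted p = 0.0391), and without XAV939 replicate 1 its difference was 0.15 and did not pass. Acaa1a, a peroxisomal thiolase, passed without XAV939 replicate 1. Fabp3, Cav1, Acot10 and Acaa1a are named after their values were seen.

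Elongation and desaturation genes passed in 7 of 21 cases (33.3%, against 9.65% of all genes). The 7 were 6 higher and 1 lower, 14 did not pass, and the median difference was 0.15. Scd2, a stearoyl-CoA desaturase of embryonic and neural tissue, read 11.26, 11.30 and 11.31 with CHIR99021, against 10.69, 10.74 and 10.79 with XAV939. It rose by 0.55 ± 0.05 (SE, adjusted p = 8.46e-05). Its paralogue Scd1 rose by 0.42 ± 0.06, the elongase gene Elovl7 by 0.52 ± 0.06 and Hacd4, a dehydratase of the elongation cycle with a mean level of 4.49 with CHIR99021 and 4.17 with XAV939, by 0.33 ± 0.05 (SE). Elovl4, which makes the longest-chain fatty acids, was lower by 0.46 (adjusted p = 0.00505). It read 7.69, 7.64 and 7.61 with CHIR99021, against 7.89, 8.19 and 8.22 with XAV939.

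Among 24 genes that place acyl-CoAs in glycerolipids, 3 rose, 1 fell and 20 did not pass, with a median of 0.09. This made 16.7% past the threshold, against 9.65% of all genes. Mogat2, a monoacylglycerol acyltransferase known from intestine, read 6.34, 6.40 and 6.22 with CHIR99021, against 5.69, 5.53 and 5.61 with XAV939. It rose by 0.71 ± 0.07 (SE, adjusted p = 6.46e-05), the widest difference among the genes of the 9 lists. Lpcat3, which places polyunsaturated acyl chains in phospholipids, read 9.08, 9.06 and 9.16 with CHIR99021, against 8.64, 8.60 and 8.62 with XAV939. It rose by 0.48 ± 0.05 (SE, adjusted p = 2.02e-04), while Acsl4, the synthetase that supplies such chains, was lower. Gpat3, a glycerol-3-phosphate acyltransferase, rose by 0.43 ± 0.08 (SE, adjusted p = 0.00417), and Mboat2, a lysophospholipid acyltransferase, fell by 0.20 (adjusted p = 0.0466), a call lost without any one array other than CHIR99021 replicate 3 (0.0816 to 0.192). Without CHIR99021 replicate 1, 5 genes of this list rose, the further ones being Agpat1 and Lclat1, also named after their values were seen.

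Lipid droplet and lipolysis genes passed in 1 of 19 cases (5.26%, against 9.65% of all genes), with a median of -0.02. Plin2, the droplet coat protein perilipin 2, rose by 0.32 ± 0.06 (SE, adjusted p = 0.00406), with 8.69, 8.68 and 8.77 with CHIR99021, against 8.40, 8.33 and 8.45 with XAV939. Among 14 PPAR regulators and targets, the nuclear receptors that respond to fatty acids, 0 rose, 1 fell and 13 did not pass, with a median of 0.01. Here 7.14% passed, against 9.65% of all genes. Rxrg, a retinoid X receptor that pairs with PPARs, fell by 0.38 (adjusted p = 0.00290), at levels of 4.97 ± 0.04 with CHIR99021 and 5.35 ± 0.10 with XAV939 (SD, n = 3 each), below the median of all probe sets.

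**Figure D4:**
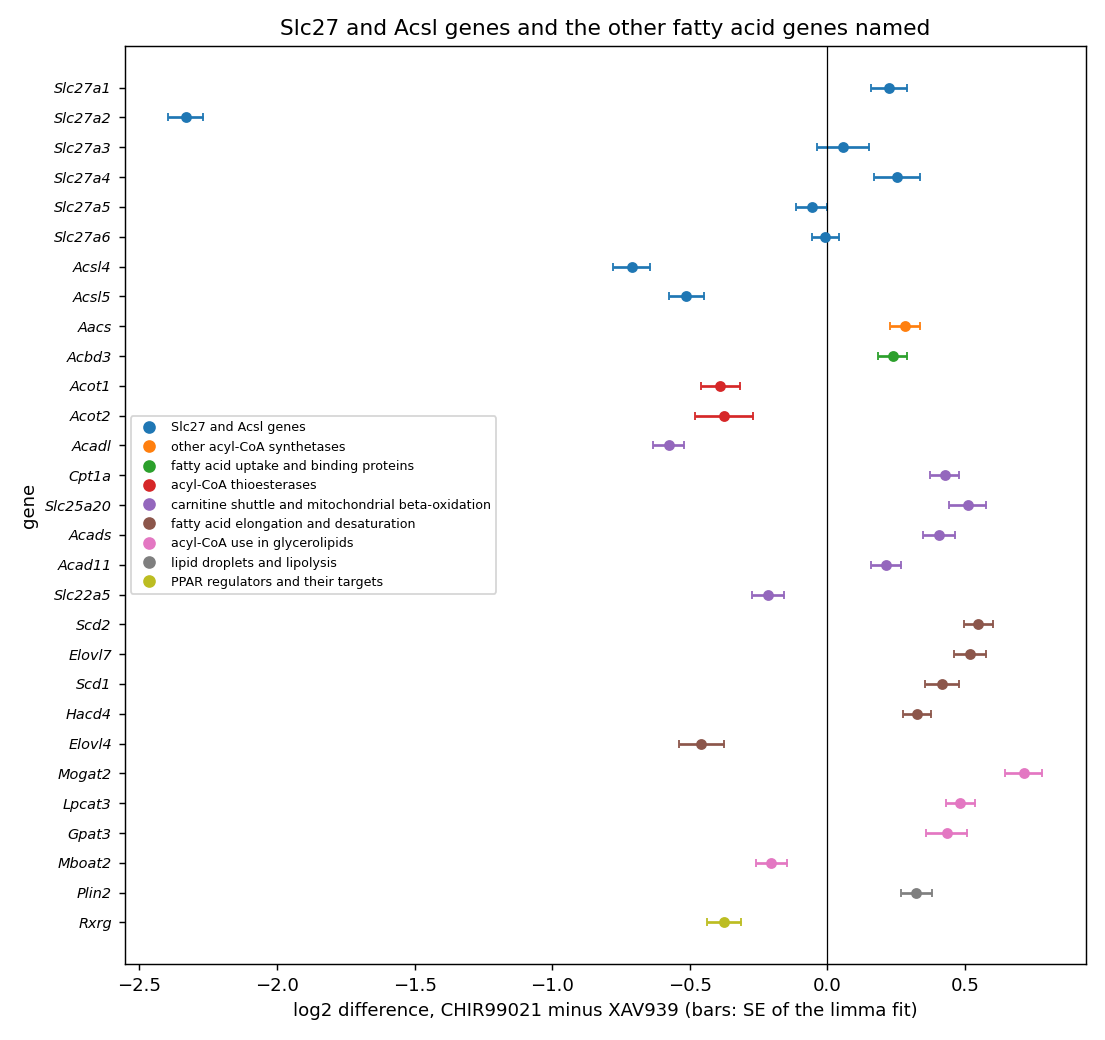
Log2 difference, CHIR99021 minus XAV939, with the SE of limma's fit (horizontal), for the 8 measured Slc27 and Acsl genes and the other fatty acid genes named here that passed the threshold (vertical, coloured by list). Slc27a2 at -2.33 lies far outside the range of the other genes shown, which runs from -0.71 (Acsl4) to 0.71 (Mogat2).

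Markers of the stem cells and of other cell types were read on the same arrays. Over all genes 5.31% were higher and 4.34% were lower. In bulk RNA, fewer cells of a type and less RNA per cell cannot be told apart. Of 10 stem cell markers, 2 were higher, 4 lower and 4 not past, and all 10 had levels above 5.68, the median over probe sets. Their summed level on the linear scale was 20817 to 21234 with CHIR99021 and 23358 to 24033 with XAV939. The median difference of the 10 was -0.19. Pou5f1 was at 11.33 with CHIR99021 and 11.51 with XAV939 and did not pass (limma adjusted p = 0.115). Nanog, at 11.03 with CHIR99021 and 10.54 with XAV939, was 1 of the 2 higher markers and went against the 4 lower ones. Feeder fibroblast markers were higher for 7 of 19 genes and lower for 0, with sums of 3236 to 3500 with CHIR99021 and 2389 to 2469 with XAV939. Col1a1 rose by 1.05 ± 0.05 (SE), and Thy1 differed by -0.08 ± 0.08 (SE). Trophectoderm markers were higher for 7 of 11, with sums of 7691 to 7986 with CHIR99021 and 4084 to 4357 with XAV939. The defining markers Gata3 (0.26 ± 0.07, SE) and Elf5 (0.01 ± 0.05, SE) did not pass. With CHIR99021 they averaged only 5.98 and 4.95, so these sums come mainly from other, more strongly expressed genes of the list. Primitive and visceral endoderm markers, of a lineage rich in lipid uptake, were higher for 0 of 15 and lower for 1. Their sums were 682 to 697 with CHIR99021 and 675 to 727 with XAV939. Only 6 of these 15 had levels above 5.68, against 10 of the 19 feeder and 10 of the 11 trophectoderm markers. RMA narrows differences at low levels, so the flat endoderm sums say little. Gata4 was at 6.18 with CHIR99021 and 6.23 with XAV939, and Sox17 at 4.88 with CHIR99021 and 4.84 with XAV939. RMA values have no true zero, so no marker could be read as absent, and the part of these markers in the differences of Slc27a2, Acsl4 and Acsl5 was not tested.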

How the data were processed

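The deposited table holds log2 expression values for 34760 probe sets on 6 arrays, made by the authors with RMA, per the submitters' processing notes. The RMA version is not given in the sources used here, nor is a genome build. Groups were read from the sample titles. The platform annotation names 1 gene for 21640 probe sets, several for 1321 and none for 11799, and each gene was represented by its single-gene probe set with the highest mean, which gave 19937 genes. Treatments were compared without further normalisation or filtering by limma 3.58.1 in R 4.3.3 (lmFit and eBayes, residual degrees of freedom 4, prior 6.15), with Benjamini-Hochberg adjustment over all genes and a threshold of 0.05. The procedure was tested on simulated data. With 3 arrays a side, exact permutation of labels gives no p under 0.1, and it was left out. Precision is limited by how few arrays there are.

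The genes and the pathway lists were chosen with earlier results of these data known. The text names all 8 measured genes and Acsl6. From each list it names up to 4 genes with the smallest p past the threshold, all genes of a direction with 5 or fewer, or, where none passed, the 1 of smallest p. It also names the 5 profiles nearest to Slc27a2, its 3 measured neighbours on each side, and a pair of markers per cell type. Medians of the arrays were 5.67 to 5.71. Pearson correlations across genes were 0.997 to 0.999 within a treatment and 0.994 to 0.995 between treatments, and XAV939 replicate 1 stood slightly apart. Alternatives were centring, repeated quantile normalisation, a filter on level, other probe sets, other variance models, a replicate block, a threshold of 0.01 and leaving out each array. Plots were drawn with matplotlib 3.10.9.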

Additional observations from a re-analysis of the deposited data

How the results depend on the processing

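Over the 17 alternatives, Slc27a2, Acsl4 and Acsl5 kept their direction, with differences of -2.40 to -2.29, -0.77 to -0.66 and -0.56 to -0.47. Only centring, repeated quantile normalisation, array weights and leaving out 1 array could move these differences. The other alternatives could not, since each gene has 1 probe set and the groups are balanced, but several changed the adjusted p. With ordinary least squares it was 0.00570 for Slc27a2, 0.0341 for Acsl4 and 0.0495 for Acsl5, the last only just under the threshold. The 8 genes had 3 past the threshold, and 5 with array weights, where Slc27a1 and Slc27a4 joined. Without genes under the 50th percentile of level, Slc27a5 and Slc27a6 were not tested. There 4 of the remaining genes passed, as Slc27a1 joined. Slc27a3 turned to -0.02 with array weights, and with 1 array left out it ranged from -0.0499 (without CHIR99021 replicate 3) to 0.1471, with -0.0014 without XAV939 replicate 1. Slc27a6 turned to 0.0005 with array weights and ranged from -0.0267 to 0.0048 (without CHIR99021 replicate 1). Atp8b4 ranged from -0.0741 to 0.0020 and Usp8 from -0.1522 to 0.0561, both turning without XAV939 replicate 3. The count of all genes past the threshold (1924, with 1058 higher and 866 lower) was 639 with ordinary least squares (350 higher, 289 lower) and 1118 at a threshold of 0.01 (621 higher, 497 lower). With array weights 1409 were lower. With 1 array left out it was 1254 (without CHIR99021 replicate 2) to 2247 (without XAV939 replicate 1), and 528 to 1117 for lower genes, for the same arrays. Of the pathway genes, 16 were higher, against 25 with array weights and 7 with ordinary least squares. The thioesterases had 1 higher gene, Acot9, when quantile normalised again, without genes under the 50th percentile of level, with an intensity trend and with array weights. The lower pathway genes, 7, were 1 with ordinary least squares, 4 with all single-gene probe sets tested, 4 at a threshold of 0.01 and 4 to 7 with 1 array left out. Calls lost with ordinary least squares included those of Aacs, Acot1, Acot2, Slc25a20, Acads, Acad11, Slc22a5, Scd1, Elovl4, Gpat3, Mboat2, Plin2 and Rxrg. Their adjusted p in that fit was 0.0508 (Acads) to 0.317 (Acot2). The moderated test pools variances over genes and ordinary least squares does not; other causes were not tested. Same-numbered arrays correlated in their deviations from the treatment mean at -0.10, 0.06 and -0.14. Differently numbered arrays correlated at -0.13 to 0.18. With 3 arrays a side, such correlations cannot show whether the replicates were paired. With the replicate number as a block, 1578 genes passed and 3 of the 8 did, and Acad11, Slc22a5 and Mboat2 did not pass.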

Other observations

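XAV939 replicate 1 was the lowest XAV939 array for 5 of the 8 measured genes (Slc27a1, Slc27a2, Slc27a3, Acsl4 and Acsl5), against 36.5% of all genes. Without it the differences were 0.17 for Slc27a1, -2.40 for Slc27a2, -0.77 for Acsl4 and -0.56 for Acsl5.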
